A study of Mus musculus with 8 samples.

Results

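The sterol and fatty acid synthesis genes described here are 36 genes of the SREBP pathway, picked by symbol from the 24062 genes of the count table, and all 36 were among the 13197 genes with enough counts to be tested. They were measured by total RNA sequencing of immature myeloid cells (IMCs), which are marrow cells that still can become macrophages, granulocytes or osteoclasts. Bone marrow of C57BL/6 mice, 2 months old, was passed through a 40 µm strainer and grown for 3 days with M-CSF (40 ng/mL), the growth factor of the macrophage lineage, in medium with 10% fetal bovine serum. PARP1 WT and PARP2 WT mice carried the floxed PARP1 or PARP2 alleles without Cre, while PARP1CKO and PARP2CKO mice carried the same floxed alleles with lysozyme-Cre, which deletes in myeloid cells. PARP1 and PARP2 are nuclear enzymes that attach ADP-ribose to proteins after DNA damage. Each of the 4 groups had 2 libraries, called biological duplicates in the labels, and whether they came from separate mice was not given, so p-values measure the spread between these libraries. Cre and the deletion cannot be told apart in this design, since no group carried Cre alone.

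SREBP-1 (from Srebf1) and SREBP-2 (from Srebf2) are transcription factors made as membrane proteins of the endoplasmic reticulum. When sterols run low, Scap carries them to the Golgi, where proteases free the part that enters the nucleus. When sterols are ample, Insig1 and Insig2 hold Scap back, and Insig1 is itself an SREBP target. SREBP-2 acts mostly on the enzymes from acetyl-CoA to cholesterol, and SREBP-1 mostly on those that build, desaturate and elongate fatty acids. In macrophages the same pathway supplies membrane for growth and cell division.

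Libraries held between 37852450 and 61845125 counts, of which the 36 members took between 0.467% and 0.597%. Parp1 had 202 and 211 CPM (counts scaled to an equal library size) in PARP1 WT against 63.2 and 59.1 CPM in PARP1CKO, and Parp2 had 48.2 and 48.3 CPM in PARP2 WT against 25.7 and 25.6 CPM in PARP2CKO. Parp1 was uneven in PARP2 WT, at 251 CPM in the first library and 155 CPM in the other. The 6 defining myeloid markers were all present, for example Itgam at 881 to 1035 CPM and Csf1r at 1134 to 1273 CPM. Of the genes behind the Gr1 antigen that defines IMCs, Ly6c2 had 53.9 to 72.2 CPM and Ly6g had no row in the table. T and NK cell markers summed to 2.02 to 3.17 CPM, and the 6 adipocyte and stromal markers to 33.9 to 42.1 CPM in the PARP1 groups and 77.1 to 87.1 CPM in the PARP2 groups. Most of each sum was Fabp4 (31.7 to 85.9 CPM), which macrophages also express, and Adipoq and Plin1, which define fat cells, were each at most 0.207 CPM. In bulk RNA, fewer cells of a type and less RNA per cell cannot be told apart.

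Promoter windows from 250 bases before to 50 bases after the start site were read from RefSeq (GRCm38.p6, equal to mm10 in coordinates) for 29 of the 36 members. Not matched were Stard4, Fdps, Fdft1, Sqle, Scd1, Scd2 and Fads1. The 4 windows printed here stand for the main roles: Hmgcs1, an early step of the mevalonate branch (chr13:119690101-119690400, plus strand), Nsdhl, a late step of the sterol branch (chrX:72918271-72918570, plus strand), Fasn, fatty acid synthase (chr11:120824498-120824797, minus strand), and Insig1, the sterol-regulated brake (chr5:28071162-28071461, plus strand). Capitals mark a sterol regulatory element (letters TCACNCCAC), an E-box (CACGTG) or a CCAAT box, searched on both strands, so that a CCAAT on the opposite strand reads as ATTGG.
Hmgcs1: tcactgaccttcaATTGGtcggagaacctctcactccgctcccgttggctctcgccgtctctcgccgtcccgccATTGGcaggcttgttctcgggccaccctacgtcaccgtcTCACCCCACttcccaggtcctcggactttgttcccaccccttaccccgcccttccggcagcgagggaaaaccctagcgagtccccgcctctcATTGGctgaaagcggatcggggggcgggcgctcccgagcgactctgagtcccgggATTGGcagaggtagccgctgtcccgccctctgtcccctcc
Nsdhl: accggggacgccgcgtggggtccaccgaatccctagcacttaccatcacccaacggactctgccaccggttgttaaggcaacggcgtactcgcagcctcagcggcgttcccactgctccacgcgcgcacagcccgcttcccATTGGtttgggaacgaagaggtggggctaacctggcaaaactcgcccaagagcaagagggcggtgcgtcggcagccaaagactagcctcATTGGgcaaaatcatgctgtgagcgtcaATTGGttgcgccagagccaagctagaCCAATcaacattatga
Fasn: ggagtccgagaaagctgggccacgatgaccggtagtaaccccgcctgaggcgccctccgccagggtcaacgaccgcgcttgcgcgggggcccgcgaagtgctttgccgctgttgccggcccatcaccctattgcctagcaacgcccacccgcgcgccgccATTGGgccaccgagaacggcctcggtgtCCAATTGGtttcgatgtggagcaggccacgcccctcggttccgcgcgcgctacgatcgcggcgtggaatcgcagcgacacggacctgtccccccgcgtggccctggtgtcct
Insig1: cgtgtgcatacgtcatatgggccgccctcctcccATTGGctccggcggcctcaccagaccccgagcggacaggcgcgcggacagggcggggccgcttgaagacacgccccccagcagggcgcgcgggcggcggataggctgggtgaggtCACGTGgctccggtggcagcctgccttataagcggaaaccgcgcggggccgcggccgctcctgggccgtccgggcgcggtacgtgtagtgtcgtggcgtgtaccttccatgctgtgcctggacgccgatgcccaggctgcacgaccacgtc
The CCAAT letters, which the factor NF-Y binds beside SREBP in known sterol-regulated promoters, were in the window of 24 of the 29 members (82.8%), against 41.1% of all 27025 genes with a window. Counted by window, they were in 25 of 39 member windows (64.1%) and in 37.4% of all 32851 windows. Hmgcs1, Nsdhl and Fasn each held more than 1 match, and in Fasn a match on one strand overlaps a match on the other. The sterol regulatory element letters were in 1 member, Hmgcs1, where they began 137 bases before the start site (3.45% of the 29), and in 1.44% of all genes. The E-box was in 6 of 29 members (20.7%), among them Insig1, and in 8.09% of all genes. These matches describe letters in a window and no binding was measured.

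Levels were compared between genes as CPM per kilobase of exon. Scd2, a stearoyl-CoA desaturase that puts the first double bond into saturated fatty acids, was the highest at 217 CPM per kb (169 to 261 over the 8 libraries). Its relative Scd1 had 23.5 CPM per kb. Elovl1, an elongase of very long chains, came next after Scd2 at 88.1, then Acly, which makes cytosolic acetyl-CoA from citrate, at 69.6, and Insig1 at 62.5 CPM per kb. The lowest were Acss2, which makes acetyl-CoA from acetate, at 2.26 and Tm7sf2, a sterol reductase, at 2.57 CPM per kb. In the order of all 36, only 6 of the 35 neighbouring pairs had ranges that did not overlap over the 8 libraries: Scd2 above Elovl1, Elovl1 above Acly, Insig1 above Hmgcs1, Nsdhl above Fdft1, Stard4 above Lss, and Acaca above Tm7sf2. Every member was thus transcribed, and the desaturase Scd1 and Acss2 varied most between libraries, by 2.25-fold and 2.08-fold from lowest to highest, while Ebp varied least, by 1.06-fold.

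**Figure D1:**
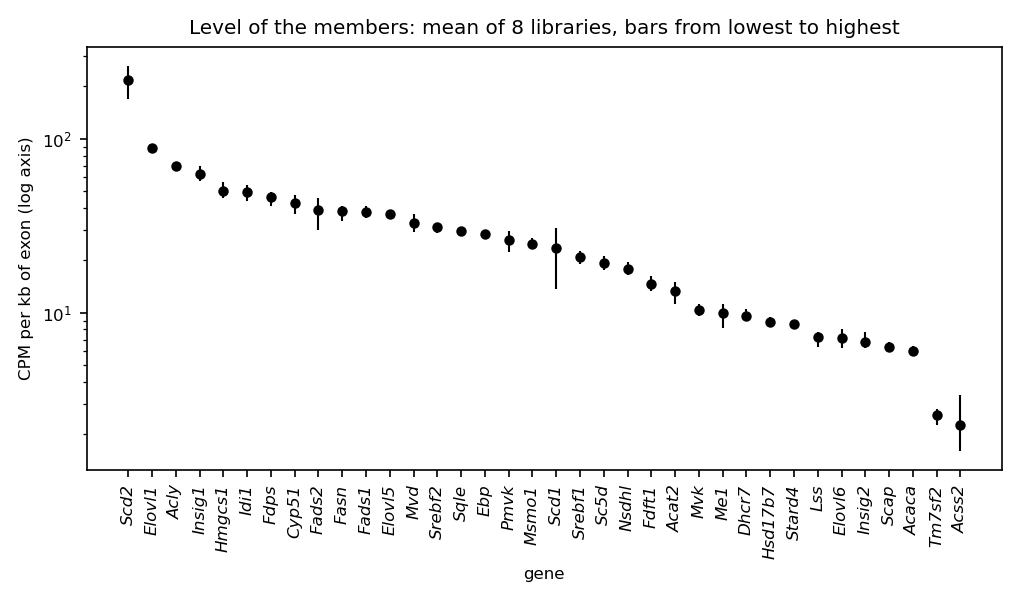
Level of each of the 36 members as CPM per kilobase of exon on a log axis, with points at the mean of 8 libraries and bars from the lowest to the highest library. Scd2 stands at 217 CPM per kb, and the bars of Scd1 and Acss2 are the longest.

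In PARP2CKO IMCs most enzymes of the pathway had lower levels than in PARP2 WT IMCs. In 26 of the 36 members (72.2%) both PARP2CKO libraries lay below both PARP2 WT libraries, and in none did both lie above, and 10 overlapped. Over all 13197 genes tested, 18.8% were lower and 18.4% higher in this sense. The log2 fold change was below 0 in 32 of 36 members, against 50.7% of all genes, and the median over the members was a log2 fold change of -0.13, against -0.00 over all genes. At an unadjusted p under 0.05, 17 members were lower and 0 higher, against 2.46% of all genes that were lower and 2.36% that were higher. No member passed an adjusted p of 0.05 in edgeR's quasi-likelihood test, in which 7 genes (0.053%) did, and the smallest adjusted p of a member was 0.366, for Nsdhl. Other tests, or the same test with no filter, called Fads2, Fasn or Nsdhl, as given with each gene. The count of 17 was lower without PARP2CKO replicate 1, and also without PARP2 WT replicate 2, the library with less Parp1. In those fits 1 group is a single library assumed to vary like the other groups. The share of all genes in them is not given here, so the fall cannot be set against the 2.46%. The median log2 fold change stayed between -0.16 and -0.13 when each library was left out in turn. The members also moved together between replicates of 1 genotype. In PARP1 WT 28 of 36 were higher in replicate 1, and in PARP1CKO 33 of 36 were higher in replicate 2. Counts of members are therefore not counts of independent genes, and the members were chosen with earlier results of these data known.

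**Figure D2:**
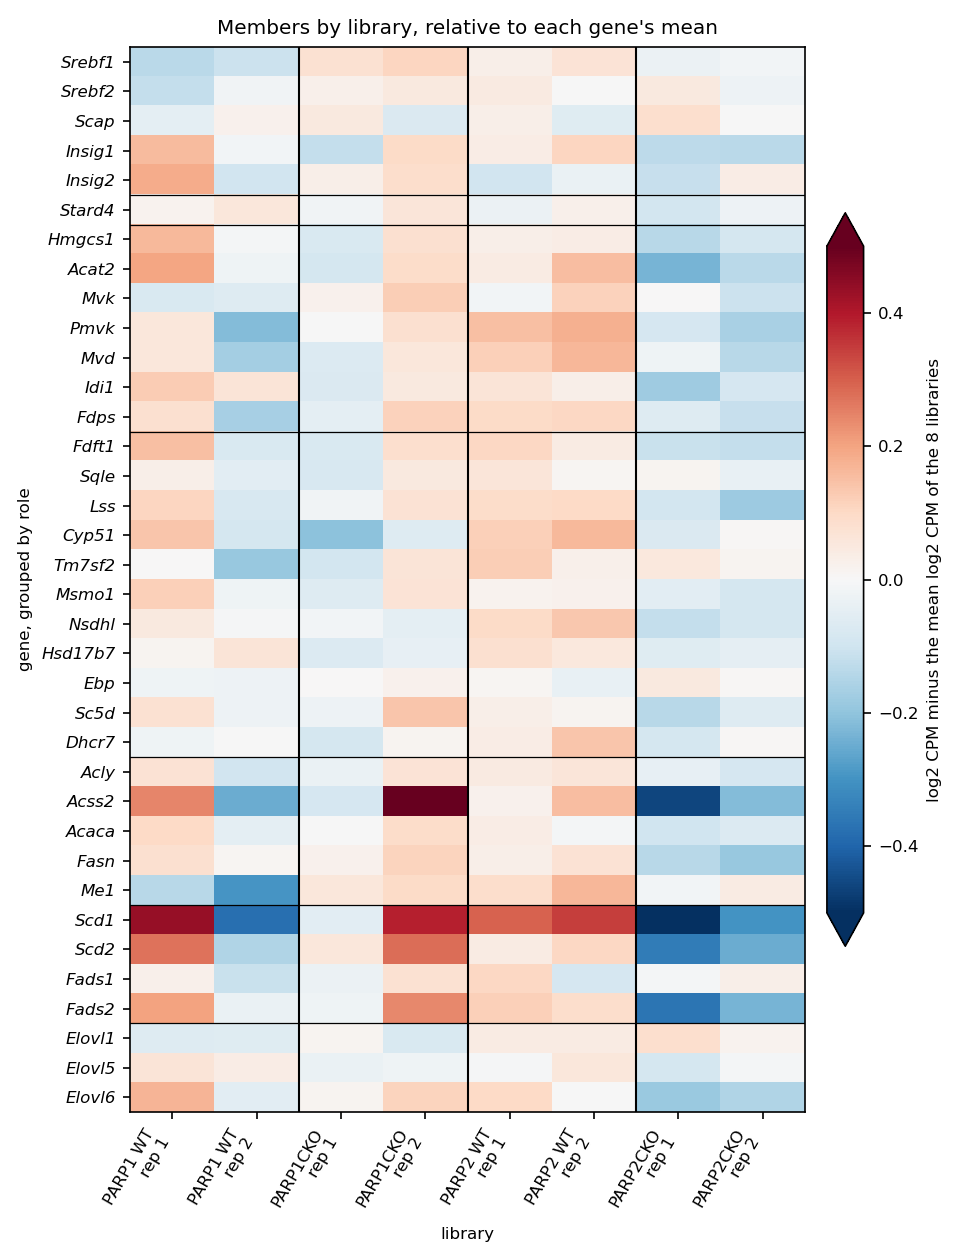
Each row is a member, grouped by role, and each column a library; color gives log2 CPM minus the gene's mean over the 8 libraries, from -0.5 (blue) to 0.5 (red), with values beyond these limits shown at the limit. The PARP2CKO columns are mostly blue, as are PARP1 WT replicate 2 and PARP1CKO replicate 1, whereas both PARP2 WT columns (32 and 29 of 36 members above their mean), PARP1 WT replicate 1 (28) and PARP1CKO replicate 2 (30) are mostly red.

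By role, the median log2 fold change was furthest below 0 in the desaturases, at -0.39 over 4 genes. In 3 of the 4 the groups did not overlap. Scd1 (chromosome 19, 44394455 to 44407879) measured 136 and 141 CPM in the PARP2 WT libraries, while the PARP2CKO libraries held 66.5 and 90.0 CPM. In the PARP1 groups it had 149.9 and 85.2 CPM in WT and 107 and 145 CPM in PARP1CKO, so that PARP1 WT replicate 2 lay inside the PARP2CKO range. Its log2 fold change in PARP2CKO was -0.82 (standard error 0.25, edgeR adjusted p = 0.849).
Scd2 (chromosome 19, 44293674 to 44306864) came to 1209 and 1262 CPM (PARP2 WT) against 922 and 989 CPM (PARP2CKO), and the log2 fold change was -0.37 (standard error 0.12, edgeR adjusted p = 0.888). Both PARP2CKO values were the lowest 2 of the 8, the others running from 1060 to 1426 CPM.
Fads2, the delta-6 desaturase of polyunsaturated fatty acids (chromosome 19, 10062765 to 10101746), stood at 138 and 135 CPM in the PARP2 WT pair and at 98.3 and 108 CPM in the PARP2CKO pair. Its log2 fold change was -0.40 (standard error 0.096, edgeR adjusted p = 0.605), and the lowest of the other libraries had 124 CPM. DESeq2 gave Fads2 an adjusted p of 0.00585, the likelihood-ratio test 0.0366, and the quasi-likelihood test with no filter on low counts 0.0324. Over all alternatives its adjusted p ran from 0.00585 to 1.
Fads1, the delta-5 desaturase beside Fads2 on the chromosome, did not share this pattern, with 197 and 173 CPM (PARP2 WT) and 182 and 187 CPM (PARP2CKO), and a log2 fold change of -0.00.

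The 5 genes that supply acetyl-CoA and NADPH or build fatty acids all had both PARP2CKO libraries below both PARP2 WT libraries, and 1 of them, Fasn, had an unadjusted p under 0.05. Fasn measured 427 and 439 CPM in the PARP2 WT libraries, while the PARP2CKO libraries held 380 and 367 CPM, where PARP1 WT and PARP1CKO had 421 to 452 CPM. Its log2 fold change was -0.21 (standard error 0.048, edgeR adjusted p = 0.538), and DESeq2 gave an adjusted p of 0.0490, in a range from 0.0490 to 1 over all alternatives. Replicates of Fasn were close, and the PARP2CKO pair lay apart from the other 6 libraries.
Acss2 came to 22.8 and 25.0 CPM (PARP2 WT) against 16.4 and 19.3 CPM (PARP2CKO). Its log2 fold change was -0.42 (standard error 0.22, edgeR adjusted p = 0.954). In the PARP1 groups it had 26.6 and 18.9 CPM in WT and 21.2 and 34.0 CPM in PARP1CKO, so single libraries of the same genotype differed more than the PARP2 groups did. Acly, Acaca (acetyl-CoA carboxylase, the committed step of fatty acid synthesis) and Me1 (malic enzyme, a source of NADPH) had log2 fold changes of -0.12, -0.10 and -0.11. Of the 75-base stretches of Acaca and Me1, 26.8% and 20% also occur in other genes, so their counts are uncertain.
Of the elongases, Elovl6, which extends palmitate, stood at 49.2 and 45.9 CPM in the PARP2 WT pair and at 40.4 and 41.5 CPM in the PARP2CKO pair. Elovl5 had a log2 fold change of -0.08 without overlap of the groups, and Elovl1 one of 0.01 with overlap.

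Of the 7 enzymes of the mevalonate branch, which leads from acetyl-CoA to farnesyl diphosphate, 6 had both PARP2CKO libraries below both PARP2 WT libraries and 5 an unadjusted p under 0.05, with a median log2 fold change of -0.19. Pmvk, the second kinase of the branch, measured 49.4 and 50.3 CPM in the PARP2 WT libraries, while the PARP2CKO libraries held 41.9 and 39.7 CPM, and the log2 fold change was -0.29 (standard error 0.079, edgeR adjusted p = 0.801). Acat2, the cytosolic thiolase that joins acetyl-CoA units, came to 34.5 and 37.3 CPM (PARP2 WT) against 28.5 and 30.5 CPM (PARP2CKO), and the log2 fold change was -0.28 (standard error 0.087, edgeR adjusted p = 0.878). As 33.9% of the 75-base stretches of Acat2 also occur in other genes, its counts are uncertain, whereas Pmvk shares none. Mvd, Fdps, Idi1 and Hmgcs1 had log2 fold changes of -0.22, -0.19, -0.18 and -0.15 without overlap of the groups, and Mvk overlapped. Counts of Fdps, Idi1 and Hmgcs1 are uncertain too, with 23.5%, 23.6% and 9.79% of their 75-base stretches shared with other genes.

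In the sterol branch, from farnesyl diphosphate to cholesterol, 8 of 11 enzymes lay lower in both PARP2CKO libraries and 6 had an unadjusted p under 0.05, with a median log2 fold change of -0.12. Nsdhl, which helps to strip methyl groups from sterol intermediates, was named here for its smallest p among the members, after its values were seen. It stood at 54.5 and 56.0 CPM in the PARP2 WT pair and at 46.9 and 47.9 CPM in the PARP2CKO pair, and 49.3 to 52.7 CPM in the PARP1 groups, so that the PARP2 WT pair was the highest and the PARP2CKO pair the lowest of the 8. Its log2 fold change was -0.22 (standard error 0.041, edgeR adjusted p = 0.366), and the likelihood-ratio test gave an adjusted p of 0.0221. No other alternative, DESeq2 and the fit with no filter on low counts included, called Nsdhl. Lss, which closes the sterol rings, measured 82.6 and 83.0 CPM in the PARP2 WT libraries, while the PARP2CKO libraries held 72.6 and 68.3 CPM, and the log2 fold change was -0.23. Sqle, squalene epoxidase and a rate-controlling step, came to 170.4 and 165 CPM (PARP2 WT) against 165 and 159 CPM (PARP2CKO), and the log2 fold change was -0.05 (standard error 0.053, edgeR adjusted p = 0.973). Sqle thus overlapped, as did Tm7sf2, and so did Ebp, whose log2 fold change was 0.04.

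Among the regulators the levels of the SREBP genes themselves differed little in PARP2CKO. Srebf1 stood at 120.1 and 123 CPM in the PARP2 WT pair and at 115 and 117 CPM in the PARP2CKO pair, and the log2 fold change was -0.07 (standard error 0.038, edgeR adjusted p = 0.954). Srebf2 measured 229.7 and 223 CPM in the PARP2 WT libraries, while the PARP2CKO libraries held 230.4 and 219 CPM, and the log2 fold change was -0.01 (standard error 0.048, edgeR adjusted p = 0.993). Insig1 came to 198 and 208 CPM (PARP2 WT) against 176 and 176 CPM (PARP2CKO), below all other libraries, of which the lowest had 178 CPM. Its log2 fold change was -0.21 (standard error 0.076, edgeR adjusted p = 0.914). Scap and Insig2 had log2 fold changes of 0.06 and 0.03 and overlapped, and Stard4, which moves cholesterol between membranes, had one of -0.05. Of the 5 regulators, only Insig1 had an unadjusted p under 0.05.

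**Figure D3:**
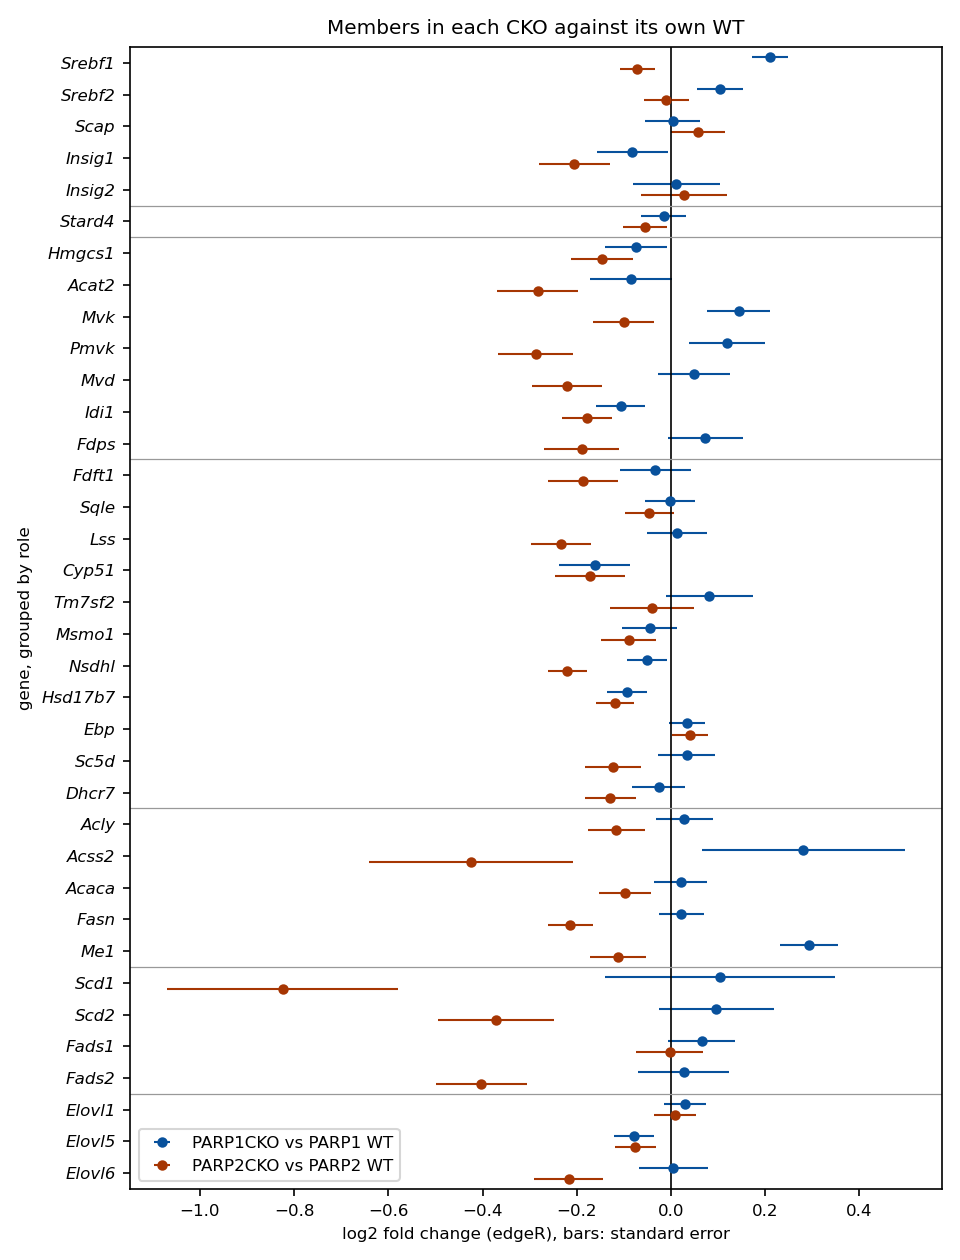
Log2 fold change of each member in PARP1CKO against PARP1 WT (blue) and PARP2CKO against PARP2 WT (brown), with bars of 1 standard error from edgeR; rows are grouped by role. The PARP2CKO points lie left of 0 in 32 of 36 members and the PARP1CKO points in 13 of 36.

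Lists of genes around the pathway were looked at in the same comparison. Of 10 genes for SREBP processing and turnover, such as the proteases Mbtps1 and Mbtps2, 0 were lower and 3 higher in both PARP2CKO libraries, and none had an unadjusted p under 0.05. Of 24 tested partner enzymes, 9 were lower and 3 higher in both libraries, and 6 had an unadjusted p under 0.05, all lower. They were Pcyt2 and Lpin1 of phospholipid synthesis (log2 fold changes of -0.18 and -0.29), Aacs (-0.17), Acsl3 (-0.31), the citrate carrier Slc25a1 (-0.11) and Tecr of fatty acid elongation (-0.16). Of 6 LXR receptors and targets, 2 were lower and 1 higher in both libraries, and Lpcat3 (-0.15), a phospholipid-remodelling enzyme, had an unadjusted p under 0.05. Of 9 tested genes of fatty acid oxidation, 1 was lower and 3 higher, with Cpt1a, the gate of mitochondrial import, at 127 and 122 CPM (PARP2 WT) against 141 and 139 CPM (PARP2CKO). Cpt1a (0.17) and Acadvl (0.13) had an unadjusted p under 0.05, both higher. Over all genes, 18.8% were lower and 18.4% higher in both libraries, and 2.46% were lower and 2.36% higher at an unadjusted p under 0.05. None of these genes passed an adjusted p of 0.05 in edgeR's test.

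Marker lists were read in the same comparison. The 6 proliferation markers summed to 1927 and 1930.1 CPM (PARP2 WT) against 1939.5 and 1922 CPM (PARP2CKO), and macrophage markers to 1988 and 2225 against 2162 and 2164 CPM. Of 7 macrophage markers 2 were higher in both PARP2CKO libraries, and of 8 immature granulocytic markers 6 were lower, with sums of 2443 and 2259 against 2211 and 2038 CPM. The 4 monocyte markers summed to 280.5 and 293 against 264 and 273 CPM, all with log2 fold changes below 0, and Ly6c2 was lower in both libraries, at 72.2 and 71.8 against 61.0 and 60.7 CPM. The sum of the 6 myeloid markers was 13884 and 15023 against 11281 and 9997 CPM, most of it Lyz2, the gene into which lysozyme-Cre is inserted. Lyz2 was lower in both PARP2CKO libraries (log2 fold change of -0.72) and Cebpa was higher in both (0.31). Of the 6 myeloid markers, 4 had log2 fold changes above 0 and 2 below. Basophil and mast cell markers summed to 9.06 and 10.6 against 6.42 and 8.70 CPM, 3 of 5 being lower in both libraries. Over all genes tested, 18.8% were lower and 18.4% higher in both PARP2CKO libraries. The part of the marker differences in the levels of the members was not tested.

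In PARP1CKO IMCs most members overlapped with PARP1 WT IMCs. Both PARP1CKO libraries lay below both PARP1 WT libraries in 4 members and above in 5, with 27 overlapping, against 20.2% of all genes lower and 21% higher, and the median log2 fold change was 0.02. The log2 fold change was above 0 in 23 of 36 members, against 52.1% of all genes. It was above 0 in 11 of the 12 fatty acid enzymes, among them all 4 desaturases, with a median of 0.03, although 10 of these 12 overlapped, and in 8 of the 18 sterol synthesis enzymes. Leaving out each library in turn, 10 of the 36 members kept their sign. None passed an adjusted p of 0.05, where 14 of all genes (0.106%) did, and 2 members, Srebf1 and Me1, had an unadjusted p under 0.05, both higher, against 6.11% of all genes. That count was higher when 1 PARP1 library was left out, in fits where 1 group is a single library. The share of all genes in those fits is not given here. Srebf1 came to 107 and 109 CPM (PARP1 WT) against 124 and 127 CPM (PARP1CKO), a log2 fold change of 0.21 (standard error 0.038, edgeR adjusted p = 0.128). DESeq2, the likelihood-ratio test and the fit with no filter on low counts gave Srebf1 adjusted p of 0.0387, 0.00889 and 0.0494, in a range from 0.00889 to 0.350 over all alternatives. Me1 stood at 34.9 and 31.3 CPM in the PARP1 WT pair and at 39.9 and 41.0 CPM in the PARP1CKO pair, a log2 fold change of 0.29 (standard error 0.061, edgeR adjusted p = 0.172, from 0.00907 to 0.391 over all alternatives). For both genes the PARP1 WT pair was the lowest of the 8 libraries. As 20% of the 75-base stretches of Me1 also occur in other genes, its counts are uncertain.
The other members named in this comparison were Mvk (log2 fold change of 0.14), Srebf2 (0.10), Idi1 (-0.11) and Hsd17b7 (-0.09), whose groups did not overlap. With 1 library left out, the lowest value was 0.092 for Mvk and 0.051 for Srebf2, and the value of Idi1 nearest to 0 was -0.049. Insig1, Sqle, Fasn and Scd1 overlapped, with log2 fold changes of -0.08, -0.00, 0.02 and 0.10, and each of these 4 changed sign when 1 of the PARP1 libraries was left out.

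**Figure D4:**
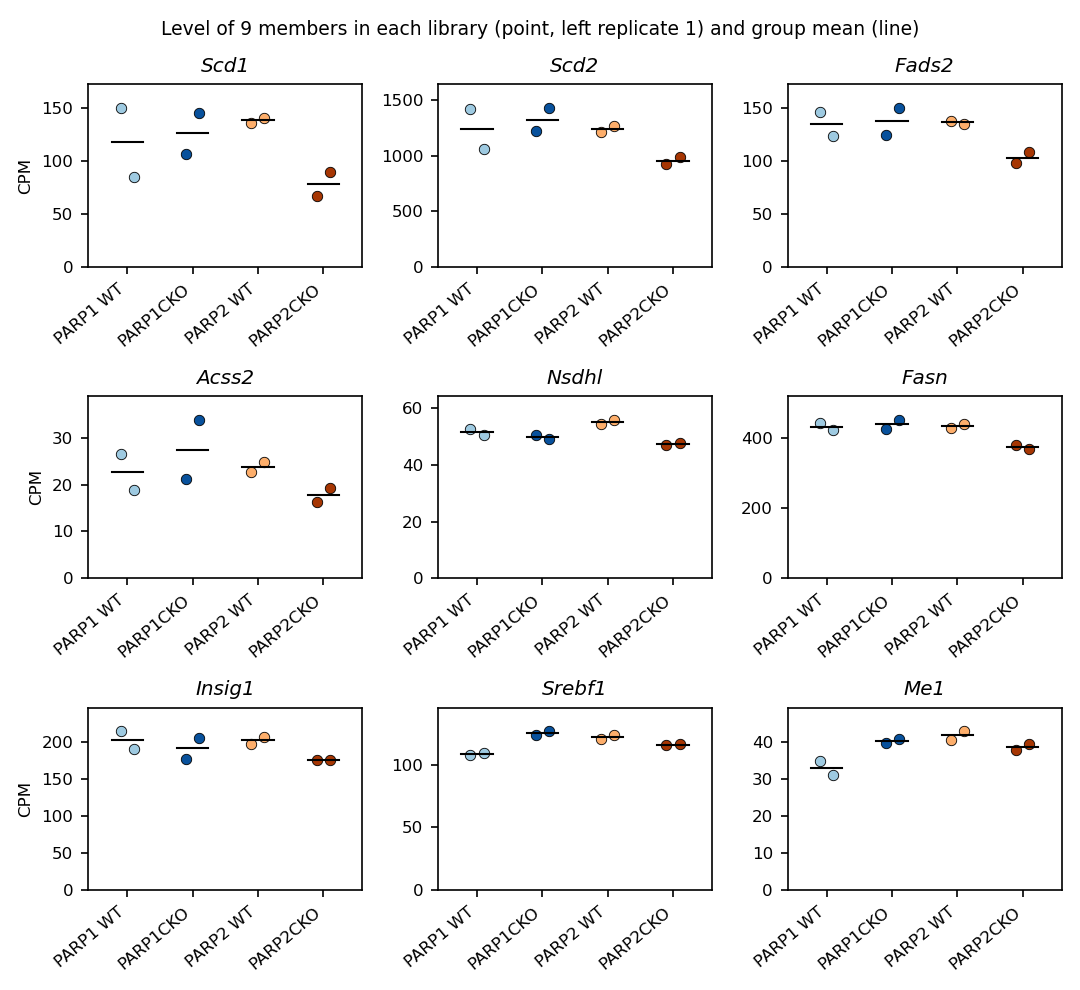
CPM of 9 members in each of the 8 libraries, with axes from 0; points are libraries, replicate 1 on the left, and lines are means of 2 libraries. The PARP2CKO points of Scd2, Fads2, Nsdhl, Fasn and Insig1 lie below all others, whereas for Srebf1 and Me1 the PARP1 WT points are the lowest.

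The members also differed between libraries of 1 genotype, and they did so together. In PARP1 WT, 28 of 36 members were higher in replicate 1, against 49.3% of all genes. In PARP1CKO, by contrast, 33 of 36 were higher in replicate 2, while 48.8% of all genes were higher in replicate 1. In 27 members both of these orders held. The median absolute gap between replicates was 0.153 on the log2 scale in PARP1 WT and 0.104 in PARP1CKO, against 0.085 and 0.079 over all genes, and 0.048 and 0.066 in PARP2 WT and PARP2CKO. As deviations from the mean of the 8 libraries, the members' median was 0.073 and -0.053 for PARP1 WT, -0.028 and 0.077 for PARP1CKO, 0.043 and 0.059 for PARP2 WT, and finally -0.089 and -0.084 for the PARP2CKO pair. Both PARP2CKO libraries were therefore the lowest, at a distance from the lower PARP1 libraries that was smaller than the gap between the PARP1 WT replicates. In 18 of 36 members the gap between the PARP1 WT replicates was larger than the distance between the PARP2CKO and PARP2 WT means, and in 14 of 36 the gap between the PARP1CKO replicates was. The share of all genes with such gaps is not given here. Both PARP2CKO libraries were the lowest 2 of the 8 in 13 members (36.1%), against 8.11% of all genes tested.
Scd1, Acss2 and Scd2 had the widest gaps in PARP1 WT, and Acss2, Scd1 and Fads2 in PARP1CKO. Between replicates of PARP1 WT, log2 CPM differed by 0.81 for Scd1, 0.49 for Acss2, 0.42 for Scd2 and 0.23 for Fads2, higher in replicate 1. Insig2 (0.28), Pmvk (0.27) and Fdps (0.25) also had wider gaps than Fads2 there. In PARP1CKO the gaps of Scd1, Acss2, Scd2 and Fads2 were 0.44, 0.68, 0.22 and 0.26, higher in replicate 2. Beside this pattern, B cell markers summed to 33.2 and 28.3 CPM in PARP1 WT and 29.8 and 41.2 CPM in PARP1CKO, and basophil and mast cell markers to 18.1 and 15.6 CPM and 12.5 and 17.8 CPM, thus also higher in PARP1 WT replicate 1 and PARP1CKO replicate 2. The sums of the T and NK cell markers (2.74 and 2.04, then 2.02 and 3.03 CPM) and of the erythroid markers (3.67 and 3.12, then 4.995 and 6.24 CPM) had the same order at low levels. Proliferation markers had the reverse order, at 2001 and 2088 CPM in PARP1 WT and 2016 and 1924 CPM in PARP1CKO. The other marker lists had neither order. Sums of the myeloid, immature granulocytic, monocyte and macrophage markers were higher in replicate 2 of both PARP1 groups. The myeloid sums were 9596 and 10476 CPM in PARP1 WT and 7703 and 8278 CPM in PARP1CKO. Sums of the adipocyte and stromal markers were higher in replicate 1 of both PARP1 groups. The part of the marker lists in the members' pattern was not tested.

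**Figure D5:**
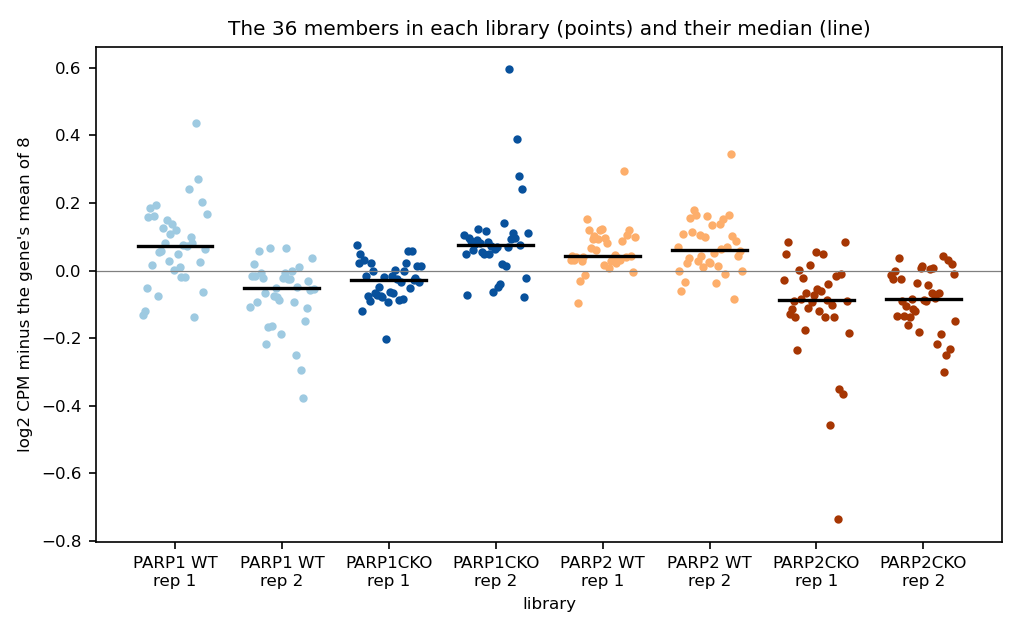
Each point is 1 of the 36 members in 1 library, as log2 CPM minus the gene's mean over the 8 libraries, and the line is the median. The median runs from -0.089 in PARP2CKO replicate 1 to 0.077 in PARP1CKO replicate 2, and the replicates of PARP1 WT and of PARP1CKO lie on opposite sides of 0.

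An interaction term tested whether the PARP2CKO effect differed from that of PARP1CKO. It was below 0 in 32 of 36 members, with a median of -0.13 on the log2 scale, and 13 members had an unadjusted p under 0.05, all in this direction, against 4.09% of all genes. None passed an adjusted p of 0.05 in edgeR's test with the filter on low counts, where 2 of all genes (0.0152%) did. In 2 members, Srebf1 and Me1, both PARP1CKO libraries lay above and both PARP2CKO libraries below their WT pair, against 3.32% of all genes, and 0 members had the reverse order, against 3.3%. The difference was -0.28 for Srebf1 (standard error 0.053, edgeR adjusted p = 0.205), -0.93 for Scd1 (standard error 0.35, adjusted p = 0.609 from edgeR) and -0.24 for Fasn (standard error 0.068, adjusted p = 0.562 from edgeR). It was -0.11 for Srebf2, -0.12 for Insig1 and -0.04 for Sqle. The difference for Scd1 ran from -1.38 without PARP1 WT replicate 1 to -0.57 without PARP1 WT replicate 2. Without PARP1CKO replicate 2 that for Insig1 was -0.011, and without PARP1 WT replicate 1 that for Srebf2 was -0.060. The count of 13 was lower without PARP2 WT replicate 2, PARP1 WT replicate 2, PARP1CKO replicate 2 or either PARP2CKO library. In those fits 1 group is a single library. The share of all genes in them is not given here, so the fall cannot be set against the 4.09%. The likelihood-ratio test called Srebf1 (adjusted p = 0.0253) and Me1 (-0.41, adjusted p = 0.0159), and edgeR's quasi-likelihood test with no filter on low counts called Me1 (adjusted p = 0.0483).

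The WT groups of the PARP1 and PARP2 lines were also compared. In 11 members both PARP2 WT libraries lay above both PARP1 WT libraries and in 0 below, against 26.7% and 25.2% of all genes, and 6 had an unadjusted p under 0.05, all higher, against 10.3% of all genes. This count was higher without PARP1 WT replicate 1 and lower without PARP2 WT replicate 2, in fits where 1 group is a single library. When scaled by library size alone it was 3. The 10.3% of all genes does not belong to these alternatives, and no share is given here for them. Me1 and Srebf1 were the 2 members that passed an adjusted p of 0.05, where 3.16% of all genes did. Me1 was higher in PARP2 WT, at 40.7 and 43.0 CPM against 34.9 and 31.3 CPM, and the log2 fold change was 0.34 (standard error 0.061, edgeR adjusted p = 0.0229). The log2 fold change stayed between 0.26 and 0.42 when each library was left out in turn. Its edgeR adjusted p was then 0.0700 without PARP1 WT replicate 2 and 0.0632 and 0.140 without either PARP2 WT library, in fits where 1 group is a single library.
Srebf1 was higher in PARP2 WT, at 120.1 and 123 CPM against 107 and 109 CPM, and the log2 fold change was 0.17 (standard error 0.038, edgeR adjusted p = 0.0497). It passed with the likelihood-ratio test and with either other filter on low counts, and with each of the remaining alternatives its adjusted p was above the threshold, from 0.0515 to 0.281. Pmvk, Mvd, Tm7sf2 and Fdps had log2 fold changes of 0.24, 0.20, 0.17 and 0.14, with edgeR adjusted p from 0.148 to 0.400. Without PARP1 WT replicate 2 these values were 0.11, 0.085, 0.073 and 0.016. Pmvk was called by edgeR with no filter on low counts (adjusted p = 0.0458) and without PARP1 WT replicate 1 (0.38, edgeR adjusted p = 0.0461), in a range from 0.0458 to 0.425 over all alternatives. Marker lists differed between the WT lines too. B cell markers summed to 33.2 and 28.3 CPM in PARP1 WT against 11.1 and 9.09 CPM in PARP2 WT, with 5 of 5 called lower by edgeR, and 5 of 5 basophil and mast cell markers were lower in both libraries with none called. Of 8 immature granulocytic markers 6 were higher in both PARP2 WT libraries and 2 were called. Fabp4, Lyz2 and Mertk were called higher in PARP2 WT, by 1.22, 0.76 and 0.76 on the log2 scale (edgeR adjusted p = 0.000532, 0.0117 and 0.00529), as was Cebpa, by 0.51 (edgeR adjusted p = 0.0383). Of 3 tested erythroid markers Hba-a1 was called lower (log2 fold change of -1.31, edgeR adjusted p = 0.0126). Of 6 proliferation markers 5 were lower in both PARP2 WT libraries, 4 with an unadjusted p under 0.05 and none called, with sums of 2001 and 2088 CPM in PARP1 WT against 1927 and 1930.1 CPM in PARP2 WT. Over all genes tested, 26.7% were higher and 25.2% lower in both PARP2 WT libraries, and 3.16% were called. The part of the marker differences in the members' levels was not tested, and line, batch and culture cannot be told apart here.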

How the data were processed

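The 8 libraries (4 groups of 2) came from total RNA of IMCs (TruSeq Stranded Total RNA, 4 µg of RNA, single-end 75-base reads). The deposited values are raw counts; to make them the authors worked by trimming with fastq-mcf, mapping to mm10 with TopHat 2.0.12, marking duplicates with Picard 1.127 and counting with featureCounts. Annotation, strand setting and use of marked duplicates are not given in the sources used here, so overlapping genes and near copies have uncertain counts. Sharing was measured as 75-base stretches of GENCODE vM21 transcripts found in another gene: 9 members shared over 5% (Scap, Hmgcs1, Acat2, Idi1, Fdps, Fdft1, Tm7sf2, Acaca and Me1).

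Of 24062 genes, 13197 passed edgeR's filterByExpr. CPM used TMM library sizes, and the common biological coefficient of variation was 0.055. Libraries held 37852450 to 61845125 counts. The test was edgeR 4.0.16's quasi-likelihood test (R 4.3.3) fitted to the 8 libraries together with 1 mean per group, adjusted by Benjamini-Hochberg over 13197 genes, with a threshold of 0.05. The standard error is the log2 fold change divided by the root of F. With 2 libraries against 2 an exact two-sided permutation test cannot give a p under 0.333, so none was run. The script was tested on simulated data. Alternatives were DESeq2 1.42.0, other scalings and filters, the likelihood-ratio test, the 4 libraries of a comparison, a replicate block and leaving out each library. Counts of replicates were further apart than sampling noise allows (chi-square per gene from 8.69 to 13.1).

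Members and lists were chosen with earlier results of these data known. Fold changes are given for called members, for the 6 largest among members whose groups do not overlap, and for Srebf1, Srebf2, Insig1, Sqle, Fasn and Scd1; others were named after their values were seen. Of the marker lists, Ly6g had no row. Promoters are those of RefSeq on GRCm38.p6.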

Additional observations from a re-analysis of the deposited data

Results flagged for a closer look

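For Srebf1 and Me1 the groups lay apart in opposite directions in the 2 comparisons: both PARP1CKO libraries lay above both PARP1 WT libraries, and both PARP2CKO libraries lay below both PARP2 WT libraries. Of all genes tested, 3.32% had this order and 3.3% the reverse. Neither gene passed in either comparison by edgeR's quasi-likelihood test with the filter on low counts. The log2 fold changes of Srebf1 were 0.21 (edgeR adjusted p = 0.128) in PARP1CKO and -0.07 (edgeR adjusted p = 0.954) in PARP2CKO. Those of Me1 were 0.29 (edgeR adjusted p = 0.172) and -0.11 (edgeR adjusted p = 0.954). The difference of the effects was -0.28 on the log2 scale for Srebf1 (edgeR adjusted p = 0.205) and -0.41 for Me1 (edgeR adjusted p = 0.281). Neither difference thus passed the threshold in edgeR's quasi-likelihood test with the filter on low counts. With no filter on low counts that test gave the difference for Me1 an adjusted p of 0.0483. The likelihood-ratio test gave adjusted p of 0.0253 for Srebf1, in a range from 0.0253 to 0.786 over the alternatives, and 0.0159 for Me1. In PARP1CKO it gave 0.00889 for Srebf1 and 0.00907 for Me1, the fit with no filter on low counts 0.0494 and 0.0338, and DESeq2 0.0387 for Srebf1. In both genes the PARP1 WT pair was the lowest of the 8 libraries.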

How the results depend on the processing

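The members' median log2 fold change in PARP2CKO stayed below 0 in every alternative run, from -0.16 to -0.12. Single members did not all keep their sign, as given below. Under other scalings, 26 to 30 members were lower in both libraries. Without the 9 members that share reads, 19 of 27 were. The 18.8% of all genes lower in both libraries holds for the TMM scaling. No share of all genes is given here for the other scalings, so the 26 to 30 cannot be set against it. The alternatives of the single members with a named fold change gave 522 values, of which 482 kept direction and side of the threshold. Of the others, 12 turned sign, each by leaving out a library, and the rest crossed the threshold. The number of genes that passed also changed. The cause was not tested.

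By DESeq2, 86 genes were called in PARP1CKO, 27 in PARP2CKO and 45 in the difference; by the likelihood-ratio test 146, 39, 72 and, between the WT lines, 910; and with no filter on low counts 101, 26, 61 and 872. The members called were then 1 (DESeq2), 2 and 2 in PARP1CKO, 2 (DESeq2), 2 and 1 in PARP2CKO, and 2 (likelihood-ratio test) and 1 (no filter) in the difference. Between the WT lines 3 members (Me1, Srebf1 and Pmvk) were called with no filter, and 1 member, Me1, was called with DESeq2's size factors, library size alone, DESeq2, the 4 libraries and the replicate block.

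Leaving out 1 library at a time, genes called ran from 1 to 34 in PARP1CKO, 4 to 19 in PARP2CKO, 1 to 16 in the difference and 85 to 566 between the WT lines, where 0 to 2 members were called. The members' median ran from -0.056 to 0.080 in PARP1CKO, from -0.21 to -0.071 in the difference and from -0.015 to 0.11 between the WT lines. Named log2 fold changes that turned sign ran in PARP1CKO from -0.19 to 0.021 for Insig1, -0.068 to 0.060 for Sqle, -0.023 to 0.065 for Fasn and -0.25 to 0.56 for Scd1, in PARP2CKO from -0.047 to 0.026 for Srebf2, and in the difference from -0.11 to 0.023 for Sqle. Of all 36 members, 31 kept their sign in PARP2CKO, 10 in PARP1CKO, 24 in the difference and 16 between the WT lines.

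Deviations of same-numbered libraries correlated at -0.13 between PARP1 WT and PARP1CKO and at 0.15 between PARP2 WT and PARP2CKO. Between PARP1 WT and PARP2 WT, which are different lines, the value was -0.049. What paired libraries would give is not known here, so these values do not decide whether replicate numbers pair the libraries. With a replicate block, 14 genes were called in PARP1CKO, 6 in PARP2CKO, 3 in the difference and 315 between the WT lines. With the numbers of the PARP1 groups crossed, an alternative added after seeing the data, 18 genes and 0 members were called in PARP1CKO.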
